A study of Mus musculus with 6 samples.

Results

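The genes described here are 44 mouse genes of the DNA damage response and of DNA repair. They were taken by name from a list of damage signalling, Fanconi anaemia, break repair, mismatch repair and excision repair genes, with no cut on a measured value. The list was chosen with earlier results of these data known. All 44 were found among the 27179 genes of the deposited table, and all 44 passed the filter on low values, which left 13018 genes for testing. RNA was sequenced from LT-HSC, the long-term blood-forming stem cells of the marrow, in a comparison that asks what changes when Prdm16, a zinc-finger transcriptional regulator, is deleted. Both groups were adult C57BL/6 mice of 8 to 12 weeks, were homozygous for the conditional Prdm16 allele (Cko/Cko) and were given pIpC, a synthetic double-stranded RNA, in 5 injections. The control group (WT) did not carry the Mx1-Cre transgene (+/+) and the deleted group (Cko) carried it (Tg/+). Presence of the transgene and loss of Prdm16 go together, so their effects cannot be told apart here. Mx1-Cre is driven by an interferon-inducible promoter that is active in many blood cells and in other tissues, so deletion is not limited to stem cells. Cells were sorted 5 weeks after pIpC from marrow pooled over 5 mice of each genotype, in 3 technical replicates per group. P-values therefore measure the spread between 3 portions of 1 pool, not between animals.

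Cells repair DNA by several routes. The kinases ATM and ATR sense broken or single-stranded DNA and signal through CHK2 and CHK1 to p53, which MDM2 and MDM4 hold in check. Double-strand breaks are rejoined directly by end joining or copied from a sister strand by homologous recombination, crosslinks are removed by the Fanconi anaemia pathway, and damaged or mismatched bases are cut out by the excision and mismatch pathways. Stem cells at rest are known to rely heavily on end joining, and loss of several of these genes in mice exhausts the stem cell pool.

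Library totals recovered from the deposited values ran from 36747729 to 43743795 reads. Prdm16 had 40.3, 50.5 and 31.7 CPM (reads scaled to a common library size, as the deposited table does) in the WT libraries and 8.74, 9.04 and 14.7 CPM in the Cko libraries. Its log2 fold change was -1.93 (SE 0.27, adjusted p = 0.00829), a call lost without Cko replicate 2 (-1.82, adjusted p = 0.0508 or 0.065 with the filter repeated or not) and without a variance trend (adjusted p = 0.0967). All 14 LT-HSC markers were expressed, with a summed level of 3613 to 3821 CPM in WT and 3574 to 3944 CPM in Cko and none called. Markers of several other blood cells were higher in Cko. Summed CPM was 394 to 413 in WT and 1223 to 1437 in Cko for 15 neutrophil markers (10 called higher), and 0.624 to 6.37 against 553 to 652 for 8 eosinophil markers (6 called higher). It was 13.7 to 18.4 against 93.9 to 107 for 8 basophil and mast cell markers (2 called higher), and 60.8 to 66.7 against 215 to 217 for 11 B and plasma cell markers (1 called higher). For 10 macrophage and monocyte markers it was 14.8 to 34.2 against 85.4 to 106 (1 called higher). It was 74.8 to 101 against 91.2 to 114 for 7 T and NK cell markers and 112 to 116 against 136 to 168 for 10 erythroid markers, with none called. Among the defining markers Mmp8, Epx, Ear1, Prss34, Mcpt8, Igkc and Adgre1 had 0 reads in every WT library. The part of these other cells in the values below was not tested, and in a sorted bulk sample fewer cells with a transcript and less of it per cell cannot be told apart.

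None of the 44 repair and damage response genes was called different between WT and Cko, a call being an adjusted p below 0.05 (limma, Benjamini-Hochberg over all 13018 genes), and none was called with voom on recovered reads either. Over all tested genes 0.699% were called, 0.407% higher and 0.292% lower, so a set of 44 genes with 0 calls is near the background. The smallest adjusted p of a member was 0.218. At an unadjusted p below 0.05 there were 3 members, Xpc, Xrcc3 and Palb2, which is 6.82% of the members against 10.3% of all tested genes. The median log2 fold change (Cko minus WT) was -0.05 over the members and 0.003 over all tested genes. There were 18 members above 0 (40.9%) and 26 below, where 50.5% of all tested genes were above 0. All 3 Cko libraries lay below all 3 WT libraries for 5 members, Xpc, Xrcc3, Palb2, Xrcc4 and Fanca, where 8.01% of all tested genes did so. They lay above for 2 members, Mdm2 and Ercc5, where 8.52% of all tested genes did so. Both counts are near the background.

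**Figure D1:**
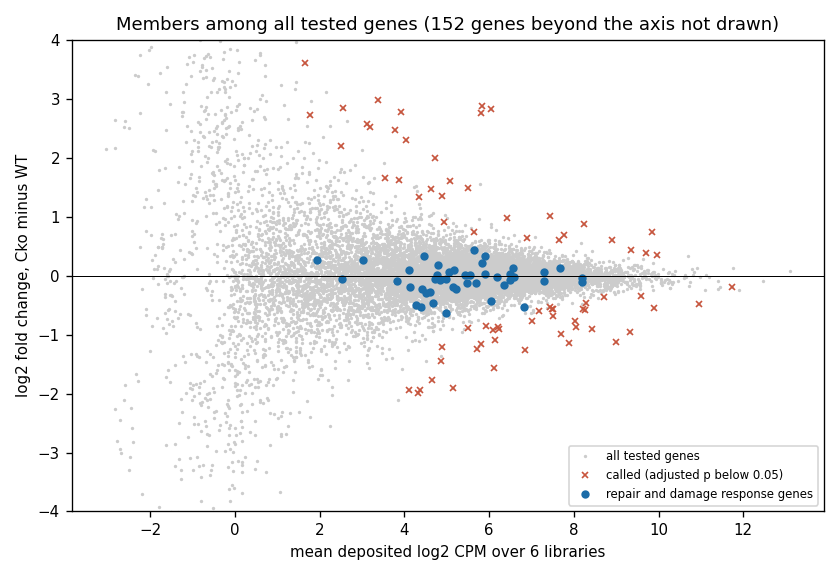
Each point is 1 tested gene, with its mean deposited log2 CPM over the 6 libraries on the x axis and its log2 fold change (Cko minus WT) on the y axis. The 44 repair and damage response genes (circles) lie between -0.63 and 0.44, and none is among the 91 called genes (crosses). Of the 152 genes beyond the axis limit of 4, 19 were called.

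The intervals show how closely these 6 libraries fix the difference between the 2 pools, and since the replicates are portions of 1 pool they set no bound on a difference between genotypes across animals. The 95% interval of the log2 fold change lay within 1.5-fold in either direction for 20 of 44 members (44.2% of all tested genes) and within 2-fold for 40 of 44 (70.1% of all tested genes). The 20 were Trp53, Mdm2, Mdm4, Chek2, Trp53bp1, Brca2, Rad50, Nbn, Xrcc5, Xrcc6, Prkdc, Fance, Fancg, Fancl, Fancm, Msh6, Ercc1, Ercc3, Parp1 and Apex1. The 4 members whose interval reached beyond 2-fold were Xrcc3, Palb2, Xrcc4 and Lig4. An interval that includes 0 does not show that a gene was unchanged. Without WT replicate 3 or without Cko replicate 2, 14 members lay within 1.5-fold, and with log2(CPM + 5) 29 did. Replicates of a group differed by a median SD of 0.196 in WT and 0.194 in Cko on the log2 scale, against 0.215 and 0.212 over all tested genes.

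**Figure D2:**
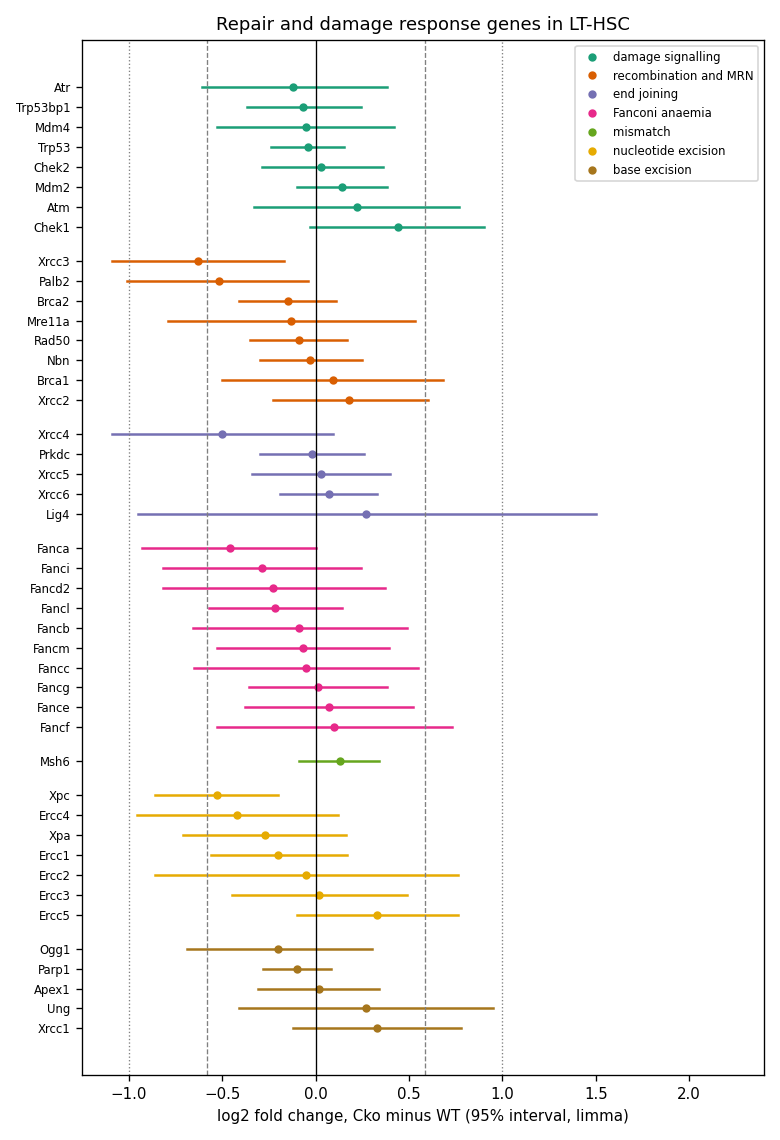
Log2 fold change (Cko minus WT, x axis) of each of the 44 genes with its 95% interval from limma, ordered by repair route and then by value. Dashed lines mark 1.5-fold and dotted lines 2-fold. The interval of Lig4 is the widest, from -0.95 to 1.5, and that of Parp1 the narrowest, from -0.28 to 0.08.

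Compared per kilobase of exon, the members spanned about 2 orders of magnitude in LT-HSC. Trp53, which encodes the p53 transcription factor, stood highest, at 74.0 ± 6.92 CPM per kilobase in WT and 71.8 ± 3.92 in Cko (SD, n = 3 each). Parp1, the poly(ADP-ribose) polymerase that marks DNA nicks, followed at 57.7 ± 0.528 and 53.8 ± 4.43, and Msh6, a mismatch sensor, at 44.8 ± 3.83 and 48.8 ± 3.11. Nbn, Xrcc5 and Xrcc6 came next, at 38.3 ± 2.35, 34.8 ± 2.50 and 34.5 ± 5.21 CPM per kilobase in WT, which overlap within their SD. At the low end were Ercc2, a helicase of transcription factor TFIIH, at 1.42 ± 0.257, Ung, which removes uracil from DNA, at 1.37 ± 0.285, and Lig4, the ligase of end joining, at 0.718 ± 0.297 in WT. The WT means of Ercc2 and Ung also overlap within their SD. Lengths are the union of all GENCODE M21 exons of a gene and not the models on which the authors counted, so genes with long rare isoforms, such as Atr and Mdm4, are set lower.

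**Figure D3:**
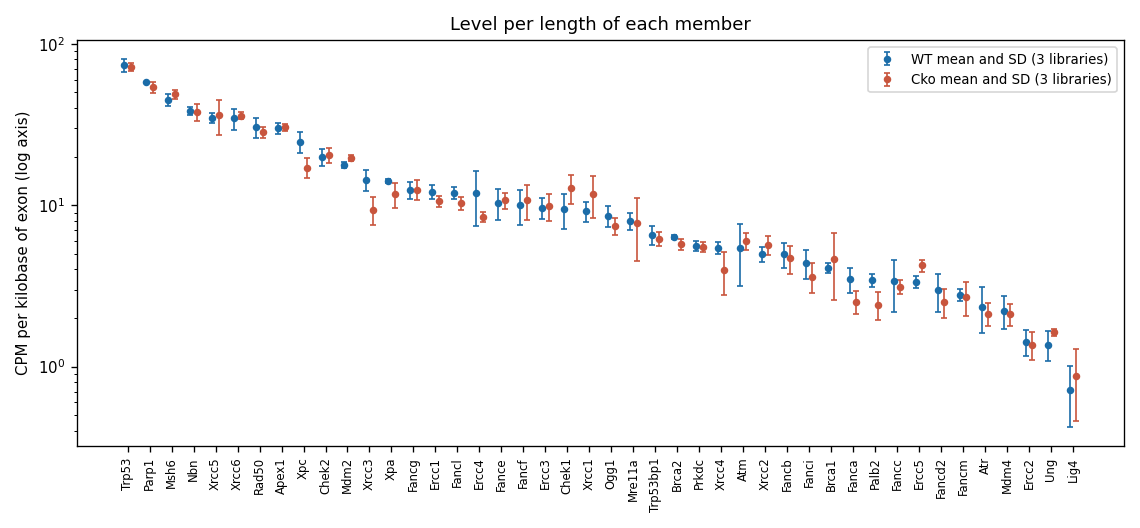
CPM per kilobase of exon (log axis) of the 44 members, ordered by their WT mean; points are means of 3 libraries and bars SD. Levels run from 74.0 (Trp53) to 0.718 (Lig4) in WT, and the SD bars of WT and Cko overlap for Trp53 and Lig4.

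Several members start back to back with another gene, so that 1 stretch of DNA lies upstream of both. Of 37 members with an entry in the RefSeq promoter table of GRCm38.p6, 13 (35.1%) had a gene of the opposite strand starting within 1000 bases upstream, compared with 20.2% of 10119 tested genes. The 4 stretches shown are those of the 3 members of this kind with the lowest log2 fold changes, and of Trp53, the member with the highest level. Palb2 (minus strand) and Dctn5, a dynactin subunit, start 94 bases apart at chr7:122132947-122133040. Xrcc4 (minus strand) and Tmem167 start 58 bases apart at chr13:90089609-90089666. Trp53 (plus strand) and Wrap53, whose product helps assemble telomerase, start 108 bases apart at chr11:69580251-69580358. Xrcc3 (minus strand) and Zfyve21 start 290 bases apart, of which the 250 next to Xrcc3 are at chr12:111813880-111814129. Each is printed 5′ to 3′ on the member's strand, ending at the base before the start given in the promoter table. The RefSeq extents of Palb2 (to 122132980), Trp53 (from 69580348) and Xrcc3 (to 111813893) reach into their printed stretches. That of Trp53 covers its marked box. Capitals mark CCAAT boxes (the letters CCAAT, or ATTGG on the other strand), the motif bound by the factor NF-Y.
Palb2: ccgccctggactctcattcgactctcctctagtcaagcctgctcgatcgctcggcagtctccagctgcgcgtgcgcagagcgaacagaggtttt
Xrcc4: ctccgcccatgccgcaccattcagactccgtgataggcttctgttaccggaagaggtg
Trp53: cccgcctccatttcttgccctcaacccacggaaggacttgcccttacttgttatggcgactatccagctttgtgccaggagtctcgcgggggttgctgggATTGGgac
Xrcc3: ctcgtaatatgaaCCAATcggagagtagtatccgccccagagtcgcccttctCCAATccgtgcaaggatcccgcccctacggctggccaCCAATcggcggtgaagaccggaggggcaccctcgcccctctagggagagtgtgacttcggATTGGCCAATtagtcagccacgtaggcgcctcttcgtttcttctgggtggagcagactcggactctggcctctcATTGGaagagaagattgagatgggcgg
The stretches of Palb2 and Xrcc4 hold no CCAAT box, that of Trp53 holds 1 and that of Xrcc3 holds 6. In the 250 bases before the start, 56.4% of the 39 member promoters held at least 1 such box against 33.8% of all 32851 promoters in the table. Of all promoters 0.0578% held 6 or more. That cut was set by Xrcc3, the member with the most boxes, so the share does not measure how unusual Xrcc3 is. Matches to the E2F words TTTCCCGC, TTTCGCGC, TTTGCCGC and TTTGGCGC, searched on both strands, were in 10.3% of member promoters and 1.9% of all. The other 2 motifs searched were the CHR word TTTGAA, in 2.6% of member promoters and 16.0% of all, and the CRE word TGACGTCA, in 2.6% and 1.5%. Member promoters were richer in G and C, with a median of 56.4% against 52.4%, and held a median of 17 CG steps (C followed by G) against 6. The promoters of the whole table include those of genes not tested here, whereas every member was tested. No comparison of motifs with the promoters of tested genes alone was made, so these shares are not shown to be particular to repair genes. The motif counts are letter matches and not measured binding.

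In these pairs the gene on the other side was not called either. Palb2 was at 27.6, 23.1 and 25.2 CPM in WT and 21.5, 14.4 and 17.5 CPM in Cko, while Dctn5 was at 111, 130 and 133 CPM in WT and 153, 134 and 144 CPM in Cko. Palb2 was thus lower and Dctn5 higher in each Cko library than in any WT library, without a call for either (log2 fold changes of -0.52 and 0.20, adjusted p = 0.441 and 0.561). Xrcc4 had a log2 fold change of -0.50 and Tmem167 of 0.10 (adjusted p = 0.559 and 0.758), and Xrcc3 and Zfyve21 had -0.63 and 0.11 (adjusted p = 0.3 and 0.882). Of the 12 pairs whose neighbour was tested, 7 had log2 fold changes of opposite sign and 5 of the same sign. None of the 12 neighbours was called, the smallest adjusted p being 0.559. The difference within a pair was not tested. By GENCODE M21 models some pairs share exonic bases, and reads there may not be separated. The shared bases were 112 for Xrcc4 and Tmem167, 154 for Mre11a and Ankrd49, 344 for Xrcc6 and Desi1, and 726 for Atr and 1700065D16Rik.

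**Figure D4:**
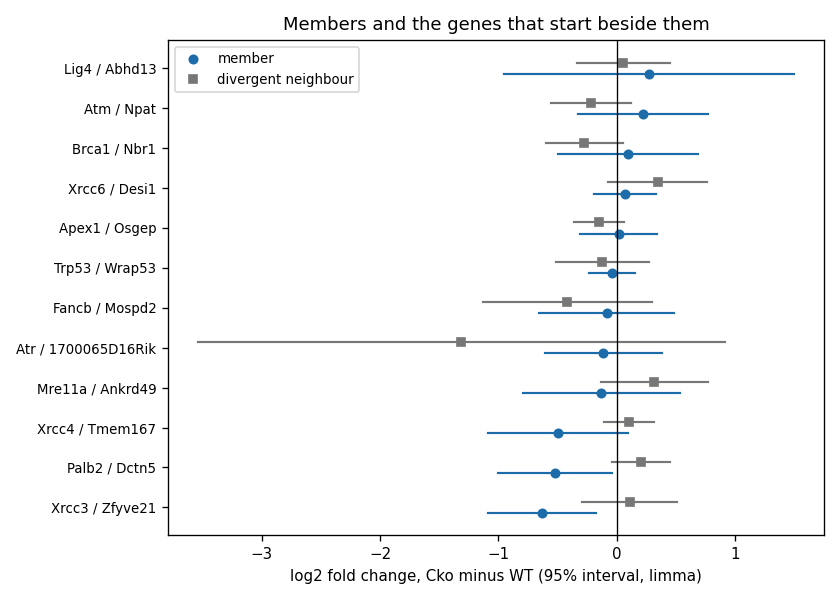
Log2 fold change (Cko minus WT, x axis) with 95% interval for 12 members (circles) and the gene that starts on the opposite strand beside each (squares). Xrcc3, Palb2 and Xrcc4, at the bottom, lie below 0 and their neighbours above it, and the intervals of the 12 neighbours all include 0.

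None of the 8 damage signalling genes was called, and their log2 fold changes ran from -0.12 to 0.44. Trp53 was at 285, 282 and 332 CPM in WT and 306, 291 and 275 CPM in Cko, so the groups overlap. Its log2 fold change was -0.04 (SE 0.09), and its 95% interval spans 0.85-fold to 1.11-fold. Mdm2, the ubiquitin ligase that degrades p53 and is itself a p53 target, was at 90.2, 94.2 and 86.7 CPM in WT and 104, 96.4 and 98.0 CPM in Cko. Every Cko library was above every WT library, but the log2 difference of 0.14 (SE 0.11) missed the threshold, with an adjusted p of 0.689. Mdm4, the partner that silences p53 without degrading it, was at 32.8 ± 7.68 CPM in WT and 31.3 ± 4.66 CPM in Cko.

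Chek1, the kinase that carries the ATR signal in S phase, had the highest log2 fold change of all members. It was at 36.0, 56.0 and 39.6 CPM in WT and 49.1, 55.7 and 72.3 CPM in Cko. WT replicate 2 lay above Cko replicates 1 and 2, so the groups overlap, and the log2 difference of 0.44 (SE 0.21) missed the threshold, with an adjusted p of 0.506. It was 0.28 without Cko replicate 3. Chek2, the kinase downstream of ATM, was at 59.8 ± 7.19 and 61.1 ± 6.24 CPM, with a 95% interval from 0.82-fold to 1.28-fold. Atm had 40.6, 82.3 and 44.6 CPM in WT and 53.7, 67.9 and 65.1 CPM in Cko. Here WT replicate 2 was far above the other WT libraries, and the log2 fold change of 0.22 (adjusted p = 0.8) ran from 0.03 to 0.54 when single libraries were left out. Atr showed the same library as its highest, with 47.9, 75.8 and 43.2 CPM in WT and 50.0, 58.6 and 42.0 CPM in Cko. Trp53bp1, which steers breaks towards end joining, was at 92.4 ± 12.2 and 87.9 ± 8.6 CPM.

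Genes of homologous recombination and of the MRN complex gave 2 of the 3 lowest unadjusted p-values among the members, and none of the 8 was called. Xrcc3, which acts in strand exchange during recombination, had the lowest log2 fold change of the 44. It was at 32.9, 44.1 and 42.1 CPM in WT and 20.8, 30.7 and 25.8 CPM in Cko. The highest Cko library stayed below the lowest WT library, by a narrow margin. The log2 fold change was -0.63 (SE 0.20) with a 95% interval from 0.47-fold to 0.89-fold, and the adjusted p was 0.3 (0.257 at the lowest over the alternatives). Palb2, which joins BRCA1 to BRCA2, had the values given beside its sequence, a log2 fold change of -0.52 (SE 0.22) and a 95% interval from 0.50-fold to 0.97-fold. Xrcc2, another gene of recombination, was at 25.9 ± 2.61 CPM in WT and 29.5 ± 3.90 CPM in Cko, a log2 fold change of 0.18 (SE 0.19).

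Brca1, which starts resection and recruits PALB2, was at 38.0, 34.0 and 33.3 CPM in WT and 59.9, 28.3 and 30.8 CPM in Cko. Cko replicate 1 stood apart while the other 2 Cko libraries were below all WT libraries. Its log2 fold change of 0.09 turned to -0.25 without that library. Brca2, which is needed for strand exchange, was at 86.6 ± 2.91 and 78.1 ± 6.64 CPM with a log2 fold change of -0.15 (SE 0.12). The 3 members of the MRN complex, which binds broken ends and activates ATM, had log2 fold changes of -0.09 (Rad50), -0.13 (Mre11a) and -0.03 (Nbn). Rad50 was at 189, 149 and 151 CPM in WT and 165, 148 and 144 CPM in Cko. Mre11a was at 42.2, 46.1 and 53.2 CPM in WT and 24.9, 50.2 and 63.4 CPM in Cko, so that its lowest and its highest value were both in Cko. Without Cko replicate 1 its log2 fold change was 0.26. Cko replicate 1 was the lowest of the 6 libraries for 12 of the 44 members and the highest for 5. WT replicates 1 to 3 were the lowest for 7, 8 and 2 members and the highest for 11, 9 and 7. Cko replicates 2 and 3 were the lowest for 8 and 7 and the highest for 2 and 10. These counts were not made over all tested genes, so they are not shown to be particular to repair genes.

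End joining, the route open to cells outside S phase, was represented by 5 genes, none called. Xrcc5 and Xrcc6 encode the 2 Ku subunits that ring a broken end. Xrcc6 was at 136, 146 and 180 CPM in WT and 164, 152 and 167 CPM in Cko, a log2 fold change of 0.07 (SE 0.12). Xrcc5 was at 89.0 ± 6.39 and 92.3 ± 22.4 CPM, the larger SD coming from Cko replicate 3 at 118 CPM. Prkdc, the kinase that Ku recruits, was at 73.6 ± 4.98 and 72.6 ± 5.10 CPM with a 95% interval from 0.81-fold to 1.19-fold. Xrcc4, the scaffold of ligase IV, was at 25.1, 21.1 and 22.5 CPM in WT and 10.9, 19.3 and 20.0 CPM in Cko. The groups did not overlap, yet 2 Cko libraries were close to WT and Cko replicate 1 was far below them. The log2 difference of -0.50 (SE 0.27, adjusted p = 0.559) was -0.22 without Cko replicate 1. Lig4 had few reads, 183, 72 and 206 in WT and 93, 186 and 296 in Cko, or 4.53, 1.95 and 4.72 CPM against 2.52, 4.33 and 6.77 CPM. The ranges overlap in part, with WT replicate 2 below every Cko library and Cko replicate 3 above every WT library. The 95% interval, 0.52-fold to 2.82-fold, was the widest of the members.

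The Fanconi anaemia genes had log2 fold changes from -0.46 to 0.10, with a median of -0.08 (0.003 over all tested genes) and no call. Against 50.5% of all tested genes above 0, 3 of these 10 were above 0 and 7 below. Their products act in order, a core complex that includes FANCA, FANCB, FANCC, FANCE, FANCF, FANCG, FANCL and FANCM attaching ubiquitin to FANCD2 and FANCI. Fanca was at 36.4, 27.9 and 26.9 CPM in WT and 21.9, 25.7 and 18.6 CPM in Cko. Its groups did not overlap, though Cko replicate 2 was close to 2 of the WT libraries, and its log2 fold change was -0.46 (SE 0.21, adjusted p = 0.488). Fancg, which binds FANCA, was at 48.5, 52.0 and 41.1 CPM in WT and 42.1, 45.6 and 55.1 CPM in Cko, a log2 fold change of 0.01 (SE 0.16). Fancl, the ubiquitin ligase of the complex, was at 40.3 ± 3.40 and 34.7 ± 3.33 CPM (-0.22, SE 0.16). The 2 substrates Fancd2 and Fanci were at 23.7 ± 6.29 and 25.4 ± 5.16 CPM in WT and 20.0 ± 4.13 and 20.8 ± 4.39 CPM in Cko. Fancc ranged more widely in WT, at 37.7, 17.7 and 29.4 CPM, than in Cko, at 28.7, 23.2 and 26.6 CPM. Fancb (-0.09), Fancm (-0.07), Fance (0.07) and Fancf (0.10) had log2 fold changes smaller than their SE. Fancb, Fancc and Fancm, below 0, and Fance, Fancf and Fancg, above 0, changed direction on leaving out 1 library.

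Among the 7 nucleotide excision repair genes, which remove bulky adducts, Xpc had the smallest p of all members. Xpc, the sensor of distorted DNA, was at 145, 151 and 113 CPM in WT and 80.1, 107 and 95.6 CPM in Cko. The groups were separate, with WT replicate 3 and Cko replicate 2 lying close to each other. The log2 fold change was -0.53 (SE 0.15) with a 95% interval from 0.55-fold to 0.87-fold, and the unadjusted p of 0.00484 became 0.218 after adjustment over all genes. Over the 22 alternative analyses its adjusted p was 0.12 at the lowest, and its log2 fold change stayed between -0.66 and -0.42. Ercc4, a subunit of the nuclease that cuts 5′ of the lesion, was at 109, 49.8 and 80.5 CPM in WT and 52.3, 59.9 and 58.2 CPM in Cko. WT replicate 2 was the lowest of the 6 libraries and WT replicate 1 the highest, and the log2 fold change was -0.42 (SE 0.24, adjusted p = 0.584). It was -0.73 without WT replicate 2 and -0.16 without WT replicate 1. Its partner Ercc1 was at 37.8 ± 3.80 and 32.9 ± 2.52 CPM. Ercc5, the nuclease that cuts 3′ of the lesion, was at 21.5, 18.4 and 19.1 CPM in WT and 23.0, 24.2 and 27.2 CPM in Cko. All Cko libraries were above all WT libraries, by 0.33 on the log2 scale (SE 0.19, adjusted p = 0.586). Xpa, the scaffold of the incision complex, was at 26.7 ± 0.718 and 22.3 ± 3.95 CPM. The TFIIH helicases Ercc2 and Ercc3 had log2 fold changes of -0.05 and 0.02.

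Base excision and single-strand break repair was represented by 5 genes and mismatch repair by Msh6, and none was called. Parp1 was at 303, 305 and 308 CPM in WT and 308, 261 and 285 CPM in Cko, a log2 fold change of -0.10 (SE 0.08). Its interval, 0.82-fold to 1.05-fold, was the narrowest of the members. Xrcc1, the scaffold that PARP1 recruits to nicks, was at 45.8, 54.0 and 61.1 CPM in WT and 91.7, 57.6 and 56.7 CPM in Cko. The Cko mean rests on replicate 1, without which the log2 difference of 0.33 (SE 0.20, adjusted p = 0.609) was 0.10. Ung was at 8.76, 5.75 and 7.96 CPM in WT and 8.66, 9.43 and 8.61 CPM in Cko, differing by 0.27 on the log2 scale (SE 0.31, adjusted p = 0.808), or by 0.09 without WT replicate 2. Ogg1, which removes oxidised guanine, was at 18.8 ± 2.78 and 16.3 ± 1.98 CPM, and Apex1, the endonuclease that cuts DNA where a base is missing, at 42.8 ± 3.29 and 43.3 ± 2.02 CPM. Msh6 was at 176, 199 and 209 CPM in WT and 206, 203 and 228 CPM in Cko, differing by 0.13 on the log2 scale (SE 0.10, adjusted p = 0.689).

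**Figure D5:**
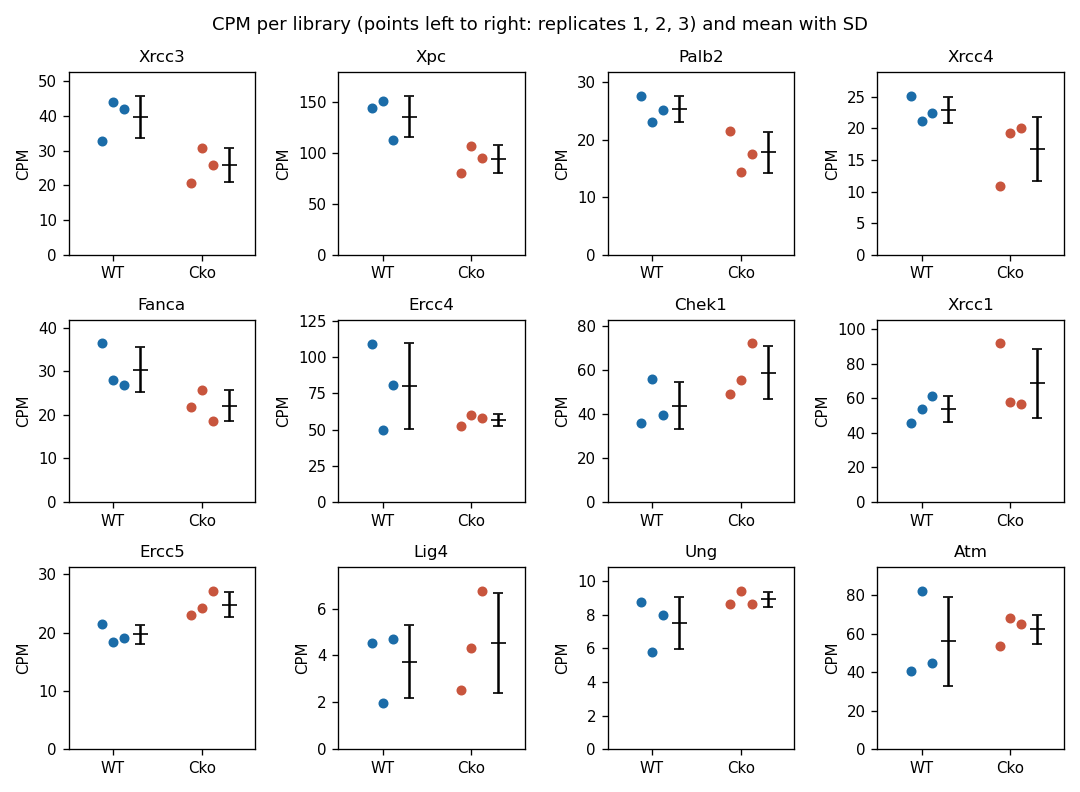
CPM in each library (points, replicates 1 to 3 from left to right) with mean and SD for the 6 members with the lowest and the 6 with the highest log2 fold changes; every y axis starts at 0. WT and Cko points do not overlap for Xrcc3, Xpc, Palb2, Xrcc4, Fanca and Ercc5, and 1 library stands apart for Xrcc1 (Cko replicate 1) and Atm (WT replicate 2).

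Reads of some members may not be separated from those of a gene on the other strand, since the strand setting of the counting is not given in the sources used here. How reads that fall on more than 1 gene were handled is not given either. If such reads were dropped, the printed levels of these members are too low rather than mixed. By GENCODE M21 models, 23 of the 44 members share at least 1 exonic base with another gene, and 9 share at least 10% of their exon length. The share was 61.7% for Apex1, whose partner is Pip4p1, and 42.7% for Ercc2. It was 18.6% for Fancc, 16.0% for Fanci, 15% for Trp53bp1 and Fancf, 13.7% for Fancl, 10.6% for Ogg1 and 10.5% for Fanca. Of the 5 members whose groups did not overlap with Cko lower, Xpc shares no exonic base, Xrcc3 shares 0.4%, Xrcc4 2.7%, Palb2 5.6% and Fanca 10.5%.

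The wider pathway gave the same count of 0. Of 151 further tested genes of the repair routes, translesion synthesis and p53 targets, none of them a member, 0 were called higher and 0 lower. Of these, 11 had an unadjusted p below 0.05, and the median log2 fold change was -0.005. Over all tested genes 0.699% were called and 10.3% had an unadjusted p below 0.05. By list, 0 of 21 other damage signalling, 25 recombination, 13 end joining, 11 Fanconi, 9 mismatch, 18 nucleotide excision, 17 base excision and 13 translesion and direct reversal genes were called, with medians from -0.162 (end joining) to 0.121 (base excision). The gene with the smallest p in each list did not pass the test. Hipk2, a kinase that acts on p53, was at 59.2 ± 8.58 CPM in WT and 86.0 ± 12.4 CPM in Cko (adjusted p = 0.256). Gen1, a nuclease that cuts crossed DNA strands, was low, at 2.99 ± 1.22 and 9.62 ± 4.02 CPM, differing by 1.68 on the log2 scale (SE 0.51, adjusted p = 0.27). Mutyh, which removes adenine opposite oxidised guanine, was at 9.32 ± 0.584 and 17.0 ± 4.43 CPM (adjusted p = 0.309). The others were Paxx (log2 fold change -0.22), Faap20 (-0.32), Rfc1 (0.21), Ddb1 (0.30) and Rad18 (-0.28), with adjusted p from 0.333 to 0.607.

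Targets of p53 were likewise without a call, with 17 of 25 tested genes below 0 and a median log2 fold change of -0.147. Over all tested genes 50.5% were above 0 and the median was 0.003. Of the 25 targets, 3 had an unadjusted p below 0.05, against 10.3% of all tested genes. Plk2, a stress-responsive kinase of the p53 target list, came nearest to a call. It was at 40.3, 45.9 and 29.2 CPM in WT and 8.93, 16.0 and 18.6 CPM in Cko, groups that do not overlap. Its log2 fold change was -1.45 (SE 0.30, adjusted p = 0.074), and it was called with a filter of 5 CPM (adjusted p = 0.0306), after quantile normalization (0.0435) and with log2(CPM + 1) or log2(CPM + 5) (0.0354 and 0.031). It was not called in the other 18 alternatives. The adjusted p was 0.0576 with voom, 0.0639 with robust eBayes and 0.0665 with median centring. It was 0.291 without a variance trend, 0.149 with the replicate block, 0.108 without a filter and 0.0806 to 0.214 on leaving out 1 library. Cdkn1a, the p53-induced inhibitor of the cell cycle, was chosen after its values were seen. It was at 9.21, 4.99 and 8.0 CPM in WT and 4.0, 3.54 and 2.49 CPM in Cko, lower in each Cko library than in any WT library, by -1.12 on the log2 scale (SE 0.42), and missed the threshold with an adjusted p of 0.382. Bax, a p53 target that promotes cell death, also chosen after its values were seen, was at 79.3, 84.3 and 75.6 CPM in WT and 104, 105 and 81.1 CPM in Cko, differing by 0.27 on the log2 scale (SE 0.13, adjusted p = 0.529). Ppm1d and Bbc3 were looked up with Cdkn1a and Bax. Their log2 fold changes were -0.37 and -0.15, with limma adjusted p of 0.475 and 0.92. Ppm1d was lower in each Cko library than in any WT library, and the groups of Bbc3 overlap. All Cko libraries were above all WT libraries for 3 of the 25 targets and below for 4. Over all tested genes 8.52% were above in this way and 8.01% below.

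Many repair genes are transcribed with the cell cycle, so S phase and mitosis genes were set beside them. None of 32 was called and 5 had an unadjusted p below 0.05, against 10.3% of all tested genes. There were 19 above 0 and 13 below, with a median log2 fold change of 0.04. Birc5, the mitotic protein survivin, had the smallest p, at 127 ± 5.90 CPM in WT and 101 ± 3.83 CPM in Cko (log2 fold change -0.33, SE 0.10, adjusted p = 0.281). Mki67, the usual marker of cycling cells, was chosen after its values were seen and was at 224 ± 9.48 and 220 ± 8.75 CPM. Mcm4, a replication gene chosen in the same way, was at 274 ± 37.8 CPM in WT and 352 ± 64.4 CPM in Cko. Its groups overlap, and the log2 difference of 0.35 (SE 0.14) missed the threshold, with an adjusted p of 0.396.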

How the data were processed

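A single deposited table holds log2 expression of 27179 genes (NCBI gene IDs) in 6 libraries. The submitters' processing notes name HISAT2, featureCounts, limma, FastQC and mm10; strand setting and versions were not given in the sources used. Each deposited log2 value equals log2 CPM after 0.5 reads were added. Undoing this gave whole reads for 100.0% of values (tolerance 0.01), and CPM in the text are these reads over the effective library size. RefSeq names (GRCm38.p6) matched 25275 IDs. A filter of 1 CPM in 3 or more libraries left 13018 genes. These were tested by limma 3.58.1 under R 4.3.3 (eBayes with a mean-variance trend, no block), and p-values were adjusted by Benjamini-Hochberg over all of them. The script was tested on simulated data. Members and lists were chosen with earlier results of these data known. Named genes were Prdm16, the 6 members with the lowest and the 6 with the highest log2 fold changes, the member of each route with the smallest p or the most reads, the gene with the smallest p in each further list, and genes that start beside a named member. Alternatives were 2 filters, 2 scalings, 2 offsets, 3 variance models (voom on recovered reads included), a block for replicate number and omission of single libraries, which was repeated on the 13018 genes as a choice made after seeing the data. Figures used matplotlib 3.10.9.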

Additional observations from a re-analysis of the deposited data

How the results depend on the processing

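No member was called in any of the 22 alternative analyses, the lowest adjusted p being 0.12 (Xpc). Lig4 missed the filter of 5 CPM and has no value there. The median log2 fold change of the members stayed between -0.09 and -0.016. The number with an interval within 1.5-fold was 14 to 19 on leaving out 1 library. The direction held in all 22 for 22 members, and the other 22 changed direction only on leaving out 1 library. Among named genes the log2 fold changes then ran from -0.08 to 0.03 (Trp53), -0.15 to 0.02 (Rad50), -0.02 to 0.19 (Xrcc6), -0.14 to 0.64 (Lig4), -0.1 to 0.09 (Fancg), -0.09 to 0.15 (Abhd13), -0.19 to 0.02 (Wrap53) and -0.03 to 0.25 (Zfyve21). Over all genes, 53 were called higher and 38 lower, against 20 to 66 and 19 to 31 on leaving out 1 library. The higher count was 83 without a filter, 105 with log2(CPM + 1) and 104 with log2(CPM + 5), and the lower count 59 and 64 with these offsets and 15 without the trend. The Prdm16 log2 fold change was -1.93 without the trend (adjusted p = 0.0967) and -2.17 to -1.76 on leaving out 1 library. With the 13018 genes kept, 25 were called lower without WT replicate 2, 28 higher and 24 lower without Cko replicate 1, and the log2 fold change of Prdm16 was -1.82 without Cko replicate 2 and that of Lig4 -0.07 without Cko replicate 3. With replicate number as a block 23 genes were called lower and 0 members either way, and same-numbered libraries of the 2 groups did not deviate together (correlations of -0.01, -0.021 and 0.02). The causes were not tested. The fewest reads of any member in a library were 72 (Lig4).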
